A study of Mus musculus with 2 samples.

Results

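Integrins are surface receptors made of 1 alpha and 1 beta chain, which hold leukocytes to other cells and to matrix. The beta 2 chain (Itgb2, CD18) pairs with the alpha chains Itgal (CD11a, forming LFA-1), Itgam (CD11b, forming Mac-1) and Itgax (CD11c). Beta 7 (Itgb7) pairs with Itgae (CD103) or Itga4 (CD49d), and beta 1 (Itgb1, CD29) with Itga4 or Itgav (CD51). In the mouse spleen CD11b and CD103 are used to tell conventional dendritic cells (cDC) of type 2 and type 1 apart, and Batf3 is a transcription factor that cDC1 need to develop. The 9 integrin genes described here were given as a list of names by a rule that uses no measured value, though with earlier results of these data known, out of 17751 genes in the count tables, and 9 of 9 were found there.

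CITE-seq of splenic cells gave 1 library from WT C57BL/6 mice and 1 from Batf3-/- mice of the same strain, females of 8 weeks, with several spleens pooled into each library. Both pools were depleted of T and B cells and sorted as live CD11c+ MHCII+ cells, so the gate used the protein of Itgax itself. The WT mice were bought and the Batf3-/- mice were bred in house, and source and genotype cannot be told apart. Transcripts are described here as unique molecular identifiers (UMIs), 1 for each captured molecule, by the deposited clusters C0 to C19 and by library.

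The WT library held 12224 cells and 122530055 UMIs and the Batf3-/- library 12119 cells and 114517073 UMIs. Batf3 itself stood at 206 UMIs per 1000000 (CPM) in WT and at 2.49 in the mutant library. C4 (immature cDC1) held 2202 WT and 31 Batf3-/- cells, and C12 (mature cDC1) 394 and 31. The libraries shared 56 barcodes. With 1 library per genotype there is no replicate and no test: the 95% intervals cover counting error only, and a change of at least 1.5-fold is a rule of size. It was applied where a gene had a mean of at least 10 CPM in the groups compared and at least 50 UMIs in all. Clusters were built from these transcripts, so their levels are descriptions.

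The alpha chains of the beta 2 family lie on chromosome 7 of GRCm38. Itgal is at chr7:127296260-127335138, Itgam at chr7:128062640-128118491 and Itgax at chr7:128129547-128150657, with 11.1 kb between the last pair. Itga4 (chr2:79255426-79333123) and Itgav (chr2:83724397-83806916) share chromosome 2. Itgae is at chr11:73090583-73147446, Itgb1 at chr8:128685654-128733200, Itgb2 at chr10:77530252-77565708 and Itgb7, on the minus strand, at chr15:102215995-102231944.

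The promoters of Itgam and Itgax are shown because these neighbours had different patterns across clusters and between libraries. Promoters from RefSeq (GRCm38.p6) were matched for 6 of the 9 genes, and those of Itgal, Itgae and Itgb2 were not used here. The 250 bases before each start site, on the plus strand, are chr7:128062390-128062639 for Itgam and chr7:128129300-128129549 for Itgax. These start sites are those of RefSeq, and the Itgax window ends just past the gene start given above, which is from another annotation. Capitals mark GAGGAA, a core of PU.1 sites, in Itgam and TGAGTCA, a site type of AP-1 and BATF factors, in Itgax, searched on both strands; these letters and this pair of promoters were chosen after the sequences had been seen.
Itgam: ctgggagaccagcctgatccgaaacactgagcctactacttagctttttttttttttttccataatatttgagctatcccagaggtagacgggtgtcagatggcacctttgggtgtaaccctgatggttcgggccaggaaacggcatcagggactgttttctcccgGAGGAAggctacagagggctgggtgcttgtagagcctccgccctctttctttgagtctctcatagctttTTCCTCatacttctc
Itgax: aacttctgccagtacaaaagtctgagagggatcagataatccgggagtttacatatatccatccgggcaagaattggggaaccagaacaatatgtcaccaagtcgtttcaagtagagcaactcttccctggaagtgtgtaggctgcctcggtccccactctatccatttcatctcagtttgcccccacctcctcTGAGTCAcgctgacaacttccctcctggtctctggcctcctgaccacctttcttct
Itgam held 2 matches to GAGGAA and 0 to TGAGTCA, and Itgax 0 and 1. Among 32851 promoter windows of the same length, 23.3% held GAGGAA and 4.46% TGAGTCA. In the other 4 windows GAGGAA had 2 matches in Itgav and 1 in Itgb1, and 0 in Itga4 and Itgb7, while TGAGTCA had 0 in each.

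Itgae, which encodes CD103, had the largest ratio of C4 over C0 (immature cDC2a) of the 9. Its log2 ratio was 5.52 in WT (4.81 to 6.33). In the WT library it was at 33.6 CPM in C4 (95% interval 31.7 to 35.6), 85.7 in C17 (mitochondrial cDC1), 52.4 in C18 (ribosomal cDC1) and 11.5 in C6 (mitotic cDC1). In mature cDC1 (C12) it was 2.02 CPM, from 6 UMIs, and in C0 0.733. At least 1 UMI was found in 651 of 2202 WT cells of C4, or 29.6%, and in 0.504% of those of C0, at median depths of 15398.5 and 6648 UMIs. With each cell thinned to 1000 UMIs the shares were 3.91% (3.14 to 4.8) and 0.0315% (0.000797 to 0.175). Even in C4 most cells thus held no Itgae UMI at this depth.

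Itgae was lower in the Batf3-/- cells of C6 and C4. C6 held 180 UMIs in 797 WT cells and 3 UMIs in 727 Batf3-/- cells, or 11.5 and 0.223 CPM. The WT level was 51.7-fold higher, with an interval of 17.4 to 253. The 31 Batf3-/- cells of C4 held 2 UMIs, or 4.25 CPM (0.515 to 15.4). In C12 the 31 mutant cells held 0 Itgae UMIs of 276572, with an upper bound of 13.3 CPM that lies above the WT level, and C17 and C18 held only 1 and 2 mutant cells. C13, which the authors name NK, ILC and T cells, was different. Itgae was 16.8 CPM there in WT (11.0 to 24.6) and 14.8 without Batf3 (8.60 to 23.6), with overlapping intervals. Of the 43 Itgae UMIs of C13, 18 were in 79 cells with a deposited label of DC, 12 in WT and 6 in Batf3-/-. Over whole libraries Itgae was 11.9 and 0.445 CPM, from 1462 and 51 UMIs. Its mean over the libraries was below 10 CPM there and in each cluster with at least 50 cells a library, apart from C13 with under 50 UMIs, so it is in none of the counts of size between libraries.

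**Figure D1:**
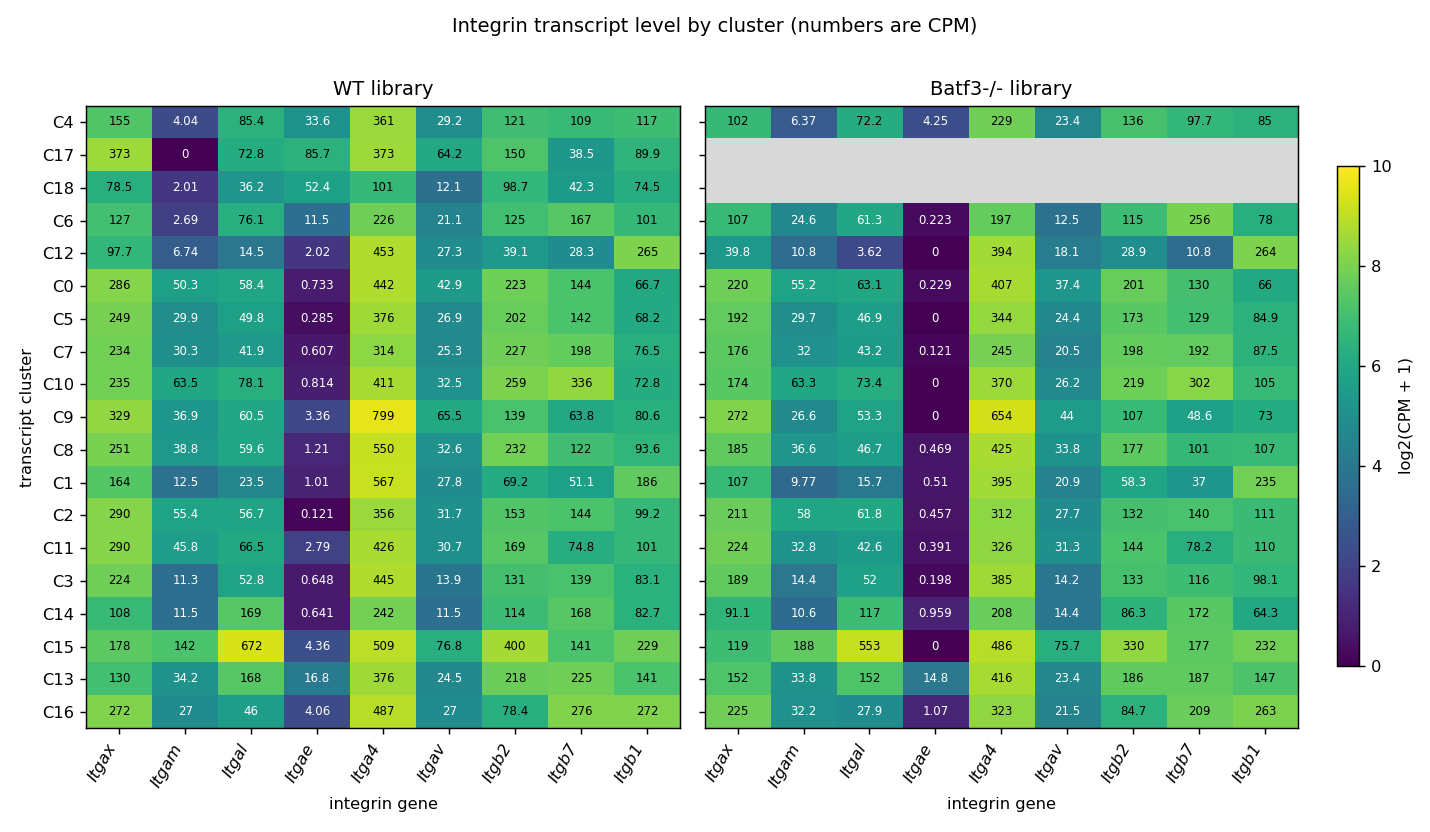
Level of each of the 9 integrin genes (columns) in each cluster (rows), in CPM as printed in the cell and as log2(CPM + 1) by colour, for WT (left) and Batf3-/- (right). Clusters under 20 cells in a library are grey, and C19 is left out. Itgae is at 33.6 in C4 of WT and 0.223 in C6 of Batf3-/-, while Itgam in C6 is 2.69 and 24.6.

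Itgam, which encodes CD11b, had close to the opposite pattern. Pooled over libraries it was highest in C15 (monocytes), at 155 CPM (136 to 175), followed by C10 (mitotic cDC2a) at 63.4, C2 (cDC2b) at 57.1 and C0 at 52.8, whose neighbouring intervals overlap. It was 13.5 CPM in C3 (Sox4+ cDC), 10.5 in C1 (Il4i1+ cDC2), 4.07 in C4, and 0 of 236458 UMIs in C17, which allows up to 12.7 CPM at 3 counts and 15.6 by the exact interval. Across 34 combinations of cluster and library with at least 50 cells, log2(CPM + 1) of Itgam and Itgae had a Pearson r of -0.62, given as a description since these share 2 libraries. Among 1963 of 2202 WT cells of C4 left after removal of doublets called by Scrublet, Itgam was lower still, at 1.57 CPM. Those calls were made from the same transcript counts, so this fall cannot tell doublets from cDC1 that hold Itgam. By flow cytometry the paper found CD11B on a small share of WT cDC1.

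C6 was where the genotypes differed most for Itgam. The WT cells of C6 had 42 Itgam UMIs (2.69 CPM, 1.94 to 3.63) and the Batf3-/- cells 331 (24.6 CPM, with an upper bound of 27.4), a log2 ratio of 3.19 (2.73 to 3.69), or 9.16-fold. The intervals lie far apart. Without doublets the levels were 1.33 and 24.6 CPM, a log2 ratio of 4.20. Their removal took C6 from 797 to 736 WT cells and from 727 to 719 Batf3-/- cells, and its part in the larger ratio was not tested. The ratio over all cells was at percentile 99.9 of the 7045 genes compared in C6, of which 9.69% differed at least 1.5-fold, and 3 of the 8 integrin genes that met the floor there did. In C5 and C7, which are mitotic cDC2a, Itgam was 29.7 and 32 CPM in Batf3-/- cells, against 24.6 in C6. An Itgam UMI was found in 4.64% of WT and 31.5% of Batf3-/- cells of C6, at median depths of 19599 and 18019 UMIs. C6 was 1 of 13 clusters where Itgam met the floor, and in the other 12 it was within 1.5-fold between libraries. It was higher in Batf3-/- cells in 7 of the 13, and without doublets in 10 of 12, with median log2 ratios of 0.07 and 0.12. Between these counts C1 fell under the floor. C5, C10 and C13 changed sign, with intervals that include 0 in both settings. No share over all genes was computed for these counts.

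Itgb7 and Itgav were the other pair past the fold in C6. Itgb7 was 167 CPM in WT, against 256 in Batf3-/- cells, a log2 ratio of 0.62 (0.54 to 0.69). Itgav was 21.1 and 12.5 CPM, a log2 ratio of -0.76 (-1.03 to -0.49). The chain that pairs with Itgae was thus higher where Itgae was at 3 UMIs. The other beta chains were closer: Itgb2 was 125 and 115 CPM and Itgb1 101 and 78.0 CPM, a log2 ratio of -0.38 (-0.49 to -0.26).

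The cells of C6 differed between the libraries in phase and in markers. The deposited phase was G1 for 13 of 797 WT cells (1.63%) and for 189 of 727 Batf3-/- cells (26.0%). The summed level of 6 cDC1 markers in C6 was 3679 CPM in WT, against 1213 in Batf3-/- cells, with each of the 6 above 0 in both, and that of 6 cDC2 markers 32.4 and 172 CPM. The chemokine receptor gene Xcr1, a defining marker of cDC1, was 397 and 45.7 CPM and the C-type lectin gene Cd209a 14.9 and 139 CPM. Most of the rise in the cDC2 sum was thus that of Cd209a. How far these shifts enter the integrin differences in C6 was not tested beyond the split by phase. In S phase Itgam was 2.15 CPM in WT, against 25.3 in Batf3-/- cells, a log2 ratio of 3.56 (2.89 to 4.30), and in G2M 2.77 and 18.5 CPM (2.74, 1.97 to 3.60). For Itgb7 the log2 ratio was 0.53 (0.43 to 0.64) in S and 0.84 (0.72 to 0.96) in G2M, and for Itgav -0.84 (-1.24 to -0.46) and -1.07 (-1.62 to -0.55). Itgam, Itgb7 and Itgav so kept their direction within both dividing phases. In G1 the 13 WT cells held 5 Itgam UMIs (24.9 CPM) and the log2 ratio was 0.34 (-0.93 to 2.00). In the same phase Itgb7 was 219 CPM in WT, against 232 in Batf3-/- cells (0.08, -0.36 to 0.56), and Itgav 24.9 and 18.1 CPM (-0.46, -1.78 to 1.22), so the 3 intervals include 0. These WT cells had cDC2 markers at 279 CPM, against 255 in the Batf3-/- G1 cells, and cDC1 markers at 2623 against 1046 CPM.

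**Figure D2:**
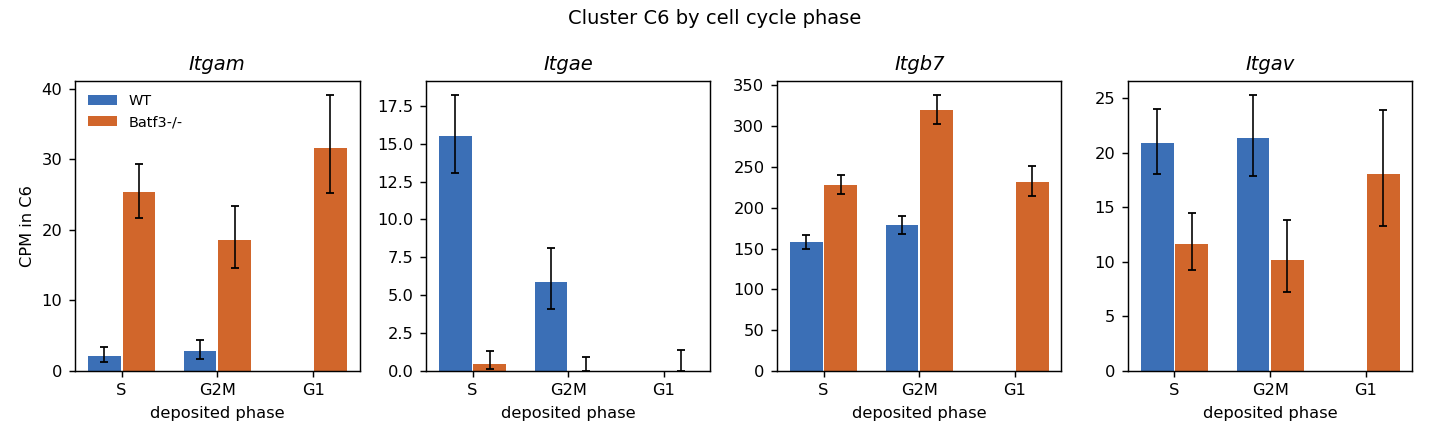
CPM of Itgam, Itgae, Itgb7 and Itgav in C6 by deposited cell cycle phase, WT in blue and Batf3-/- in orange, with 95% Poisson intervals. WT has no bar in G1, where it has 13 cells. In S phase Itgam is 2.15 in WT and 25.3 in Batf3-/- cells, and Itgb7 158 and 228.

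Over whole libraries none of the 8 integrin genes that met the floor differed by 1.5-fold between genotypes, against 5.93% of all genes compared. Itgam was 24.3 CPM in WT, against 35.2 in Batf3-/- cells (log2 ratio 0.54), and Itgal 72.8 and 54.5 (-0.42). With the 18 clusters of at least 20 cells in each library weighted by their share of WT cells, the ratios came to 0.16 and -0.14, while Itgax went from -0.21 to -0.41. At these weights 0 of 8 passed the fold, against 2.02% of all genes. By cluster, 116 of the 135 pairs of 9 genes and 15 clusters with at least 50 cells in each library met the floor. Of these 8 were past the fold, 2 higher and 6 lower in Batf3-/- cells, with 5.17% of pairs past it over all genes. Beside the 3 in C6 these were Itgax in C1, Itgal in C1, C11 and C16, and Itga4 in C16, 5 pairs with a lower value in Batf3-/- cells. C16, to which the authors give a mixed identity, held 58 WT and 68 Batf3-/- cells. Itgal in C1 and Itga4 in C16 were close to the limit, at 1.501-fold and 1.508-fold. Itgal in C16 rested on 34 and 26 UMIs, with a log2 ratio of -0.72 and an interval that includes 0 (-1.52 to 0.06). Without doublets 11 pairs passed, these 8 and Itgax in C13, higher, with Itgb7 in C1 (46.0 and 29.8 CPM) and Itgal in C14 (186 and 115 CPM), both lower. The share of pairs past the fold over all genes was not computed without doublets.

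Itgax, the CD11c chain, was lower in the mutant library in 14 of 15 clusters. C0 had 286 CPM in WT and 220 in Batf3-/- cells (log2 ratio -0.38, -0.44 to -0.33), in C2 290 and 211 CPM, and in C1 164 and 107 CPM (-0.62, -0.74 to -0.49). C13 was the exception, at 130 and 152 CPM, with overlapping intervals. Without doublets Itgax there was at 100.2 and 155 CPM, a log2 ratio of 0.63 (0.27 to 1.00) and past the fold. The doublet calls spared 200 of 241 WT cells of C13, but 142 of 146 mutant cells. Before that removal, its DC-labelled cells had Itgax at 181 CPM in WT and 168 in Batf3-/-. NK-labelled cells had 161 and 128 CPM, and ILC-labelled cells 123 and 178. The part of unequal removal and label mix in the larger ratio was not tested. Of 2537 genes that met the floor in each of the 15 clusters, 2.80% were lower in at least 14 of them, and 0.828% had a median log2 ratio at or below the -0.38 of Itgax. Itga4 was lower in 14 of 15 clusters too, with a median of -0.21, and Itgb2 in 13 of 15, with a median of -0.23. No share over all genes was computed for the Itgb2 count or for the medians of Itga4 and Itgb2. Itgb1 was higher in 10 of 15 clusters, with a median of 0.13 and the highest value in C10, 72.8 and 105 CPM (0.52). Of the same 2537 genes, 31.3% were higher in at least as many clusters as Itgb1, and 6.86% had a median at or above it. Each library was gated on CD11c by itself, and the part of the gate in the Itgax difference was not tested.

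**Figure D3:**
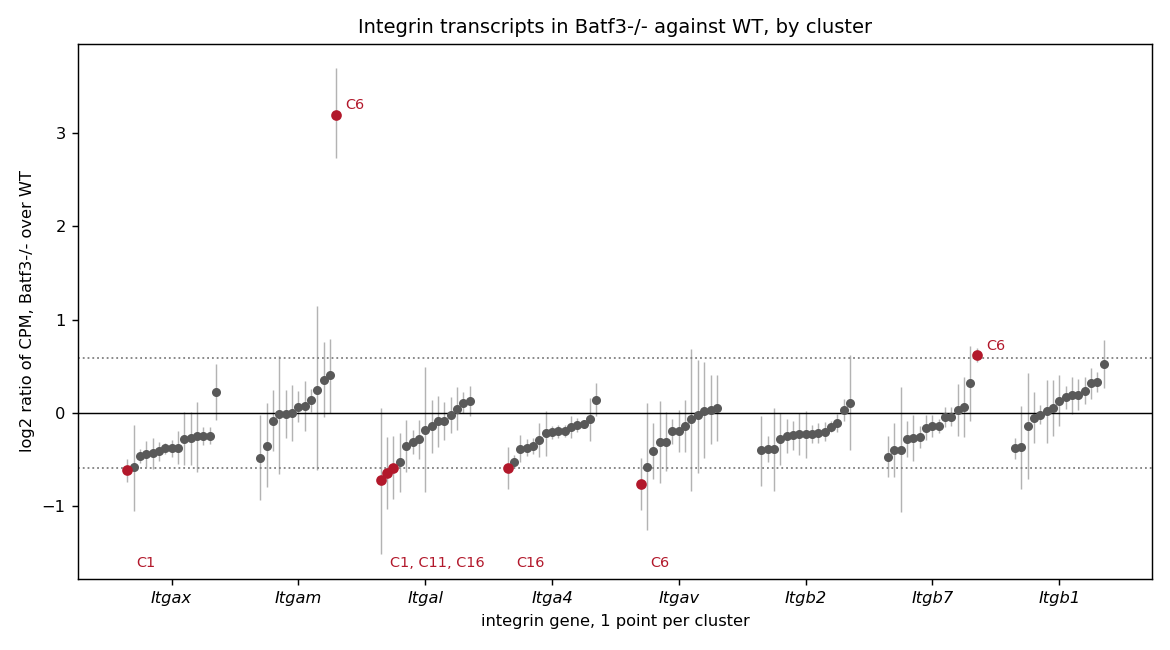
Log2 ratio of CPM, Batf3-/- over WT, for 8 integrin genes, 1 point per cluster with at least 50 cells in each library where the gene met the floor, sorted within each gene; bars are 95% counting intervals and dotted lines 1.5-fold. Red points are past 1.5-fold and named by cluster. Itgam in C6 (3.19) stands above the rest, and Itgax is below 0 in 14 of 15 clusters.

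In C12 and C1 the transcripts of the beta chains parted. In the WT library Itgb1 was 117 CPM in C4 and 265 in C12, a log2 ratio of 1.18 (1.06 to 1.29). Itgb2 was 121 and 39.1 CPM (-1.63, -1.91 to -1.37) and Itgb7 109 and 28.3 CPM (-1.94, -2.27 to -1.63). Without doublets Itgb2 was 116 and 25.6 CPM and Itgb7 108 and 17.2, so the C12 levels of both were over 1.5-fold lower without them. Mature cDC1 (C12) were therefore higher in Itgb1 transcript and lower in Itgb2 and Itgb7 transcript, and no protein value is given here. The median WT cell held 6887.5 UMIs in C12 and 15398.5 in C4. Among the alpha chains Itgal was 85.4 CPM in C4 and 14.5 in C12, Itgae 33.6 and 2.02, Itgax 155 and 97.7, and Itga4 361 and 453. In all, 1 of 8 integrin genes was past 1.5-fold higher and 5 lower in C12, in a contrast where 58.7% of all genes passed.

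The same split was measured between Il4i1+ cDC2 (C1) and C0. Itgb1 was 66.7 CPM in C0 and 186 in C1 of WT, and 66.0 and 235 of Batf3-/- (log2 ratios 1.48 and 1.83). Itgb2 was 223 and 69.2 CPM in WT (-1.69) and 201 and 58.3 in Batf3-/- cells (-1.78). In both libraries Itgb1 was past 1.5-fold higher and 6 of the 8 genes lower (Itgax, Itgam, Itgal, Itgav, Itgb2 and Itgb7), against 27.1% of all genes. Without doublets Itgav no longer passed, at 42.8 and 29.9 CPM in C0 and C1 of WT, and 5 genes were lower. Itga4 was 442 and 567 CPM in WT and 407 and 395 in Batf3-/- cells. The other clusters named mature did not have this split at that size in both libraries. For each pair of clusters compared in both libraries, a gene was counted only if it passed the fold in the same direction in both. In C8 (mature cDC2a) over C0 0 of 8 did, against 13.7% of all genes, though in Batf3-/- cells taken alone Itgb1 was higher (107 against 66.0 CPM in C0) and Itgam lower (36.6 against 55.2). In C11 (mature cDC2b) over C2 Itgb7 did, lower in C11, against 6% of all genes, and in Batf3-/- cells alone Itgam was lower too (32.8 against 58.0). Itgb7 was 144 CPM in C2 and 74.8 in C11 of WT, and 140 and 78.2 of Batf3-/-. By deposited cell label, Itgb7 in C11 was 96.2 CPM in 296 DC, 37.3 in 96 monocyte and 12.2 in 47 macrophage cells. In DC-labelled cells alone it was 145 CPM in C2 and 96.5 in C11 of WT. In those of Batf3-/- it was 141 and 96.0, short of the fold, so among DC-labelled cells the call did not hold in both libraries.

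**Figure D4:**
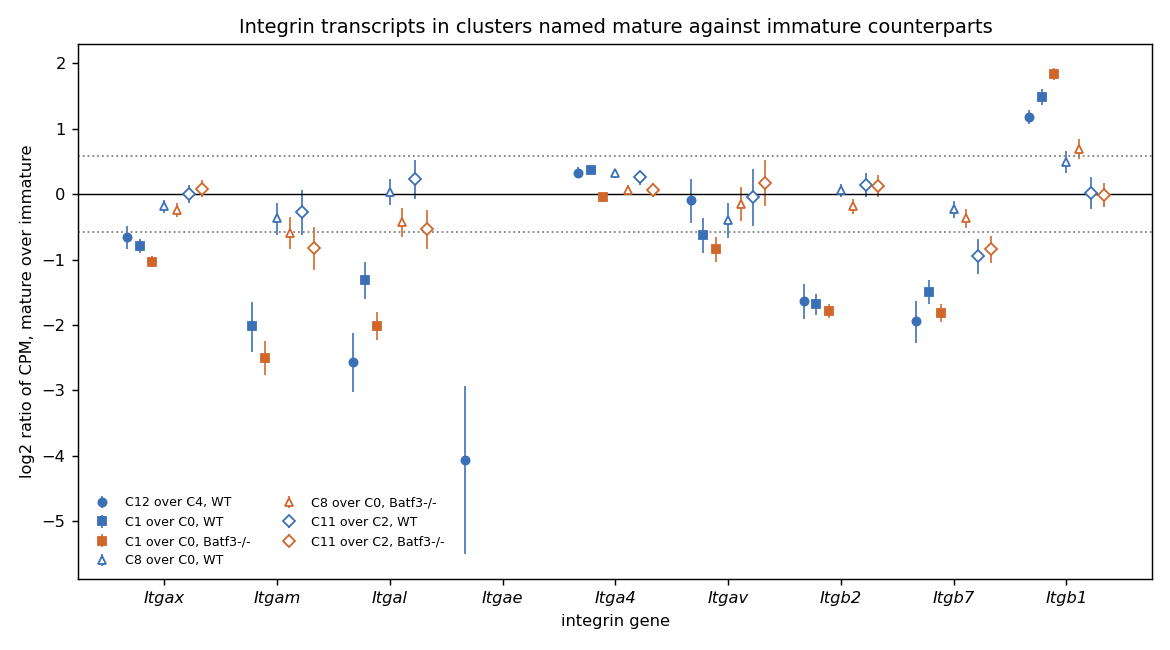
Log2 ratio of CPM of clusters named mature over immature counterparts, for the integrin genes that met the floor, WT in blue and Batf3-/- in orange, with 95% counting intervals and dotted lines at 1.5-fold. Itgb1 is above 0 in C12 over C4 (1.18) and C1 over C0 (1.48 and 1.83), where Itgb2 and Itgb7 are at or below -1.49.

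Among the immature and dividing clusters Itgb7 was highest in C10, a mitotic cDC2a cluster, at 336 CPM in WT and 302 in Batf3-/- cells, against 144 and 130 in C0. It was the 1 integrin gene past the fold in both libraries for C10 over C0, 1 of 8, where 13.7% of genes passed, and in Batf3-/- cells alone Itgb1 passed as well (105 against 66.0 CPM). The other mitotic cDC2a clusters were lower: in C5 Itgb7 was 142 CPM in WT, against 129 in Batf3-/- cells, close to C0, and in C7 198 and 192. In both C5 over C0 and C7 over C0 0 of 8 genes were past the fold higher in both libraries and 2, Itgam and Itgav, were lower, against 13.3% and 26.2% of all genes. In Batf3-/- cells alone Itga4 was also lower in C7 (245 against 407 CPM). In C9, where the median cell held 1478.5 UMIs and the mitochondrial share was 13.6%, against 6871 UMIs and 4.66% in C0, Itga4 was higher than in C0 and Itgb2 and Itgb7 lower in both libraries, 3 of 8, against 55% of all genes. The part of depth and mitochondrial RNA in this was not tested. Beside these Itgav was higher in WT alone (65.5 against 42.9 CPM) and Itgam lower in Batf3-/- cells alone (26.6 against 55.2). In WT, C6 over C4 had Itgb7 higher (0.62) and Itgae (-1.55) and Itga4 (-0.67) lower, 3 of 8 genes, against 23.1% of all genes. C4 over C0 in WT had 2 genes higher, Itgae and Itgb1, and 3 lower, Itgam, Itgax and Itgb2, of 9, against 33.2%. C2 over C0 had 0 of 8 past the fold in both libraries, against 12.1%, while in Batf3-/- cells alone Itgb1 was higher (111 against 66.0 CPM) and Itgb2 lower (132 against 201). C3 over C0 had 3 of 8, Itgam, Itgav and Itgb2, lower in C3, against 13.3%, and without doublets 2, since Itgb2 in Batf3-/- cells (201 and 134 CPM) fell just short of the fold. Itgam was 50.3 CPM in C0 and 11.3 in C3 of WT, and 55.2 and 14.4 of Batf3-/-.

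Itgal, the LFA-1 alpha chain, had its highest levels outside the cDC. It was 639 CPM in C15 (600 to 680), 161 in C13 and 148 in C14 (pDC), and 17.8 in C1 and 13.6 in C12. C15 over C2 had 5 of 8 genes higher in both libraries (Itgam, Itgal, Itgav, Itgb2 and Itgb1) and Itgax lower, against 16.1% of all genes, and Itga4 higher in Batf3-/- cells alone (486 against 312 CPM). Itgb2 was 153 CPM in C2 and 400 in C15 of WT, and 132 and 330 of Batf3-/-. Beside these, the 6 monocyte markers summed in C15 to 13094 CPM in WT, against 19551 in Batf3-/- cells, and the 4 neutrophil markers to 9251 and 19927, with none of either list at 0, in 145 and 52 cells. The part of neutrophil RNA in the integrin levels of C15 was not tested. In C14 over C0 Itgal was higher and 5 of 8 genes lower (Itgam, Itgax, Itga4, Itgav and Itgb2), against 27.7% of all genes.

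Within C13 the deposited cell labels divided the alpha chains. In 82 cells labelled NK, Itgam was 116 CPM (84.2 to 157), Itgal 287 and Itga4 612. In 86 cells labelled ILC, Itgam was 1.63 CPM from 1 UMI, Itgal 175 and Itga4 392. In 75 cells labelled T, Itgam was 3.17 CPM, Itgae 28.5 (9 UMIs), Itgal 76.0, Itga4 168 and Itgb1 41.2. In 29 cells labelled NKT, Itgam had 0 UMIs, and Itgae was 50.3 CPM from 6 UMIs (18.5 to 109), Itgal 277 and Itga4 142. The NK-labelled cells so held most of the Itgam of the lymphoid labels, while Itgb7 was 241, 214, 231 and 243 CPM in the 4 groups, in this order. A further 79 cells of C13 were labelled DC and had Itgam at 41.6 CPM. They also had Itgae at 17.8 CPM from 18 UMIs, the most UMIs of any label in C13. In the ILC-labelled cells Itgae was 13.1 CPM from 8 UMIs, and in the NK-labelled cells 5.41 from 2.

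Partner chains were also compared within a cluster, between cells with and without a UMI of the alpha chain. The pairs given here were chosen after their values were seen. In WT cells of C4, Itgb7 was 82.8 CPM in 651 cells with Itgae and 120 in 1551 without it, a log2 ratio of -0.53 (-0.64 to -0.42), at median depths of 15579 and 15287 UMIs. For 6647 genes the 5th and 95th percentiles of the same ratio were -0.36 and 0.24. The direction was the same in WT cells of C6, with 135 CPM in 115 cells and 172 in 682 cells (-0.35, -0.53 to -0.19). In WT cells of C4 and C6, those with an Itgae UMI thus held less Itgb7 transcript. In WT cells of C6 Itgae was 15.5 CPM and Itgb7 158 in S phase, and 5.86 and 179 in G2M. The part of phase in the C6 split was not tested, and no spread over all genes was computed for it. Itgb2 in cells with and without Itgam varied by cluster. It was 226 and 221 CPM in WT cells of C0 (0.03, -0.06 to 0.12), but 174 and 142 CPM in those of C2 (0.29, 0.12 to 0.46) and 156 and 116 CPM in Batf3-/- cells of C2 (0.43, 0.30 to 0.56), at median depths of 8637 and 8203 UMIs and of 9826 and 9184. In C12, Itgb2 was 57.1 CPM with and 19.6 without Itgax (1.54), but the median depths were 10406 and 5549 UMIs and the value without doublets was 0.71 (-0.03 to 1.47).

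The genes whose levels across the 34 combinations were most like each integrin gene, among 7710 genes, were Clec4a1 for Itgam (Pearson r 0.93), Ciita for Itgax (0.86), Ppp2r5a for Itgal (0.86), Gcsam for Itgae (0.88) and Ppp1r12a for Itga4 (0.89). For Itgav they were led by Adgre5 (0.85), for Itgb2 by Bin2 (0.90), for Itgb7 by Metap2 (0.89) and for Itgb1 by Stx11 (0.87). Between members, Itgal and Itgb2 had an r of 0.68 and Itgb1 and Itgb2 of -0.30. These describe 2 libraries.

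Of 18 other integrin genes 15 were in the tables, and 0 met the floor over whole libraries or in C6. Itga8, an alpha chain of beta 1 integrins, was at 22.8 CPM in C4 and 18.5 in C6 of WT, and at 0 of 13464902 UMIs in C6 of Batf3-/- cells, against 290 UMIs in WT. That is 83.2-fold lower at a floor of 3 counts, and at least 67.2-fold lower by the exact interval. The other integrin genes above 20 CPM in a cluster were Itga2 in C13 (25.9), Itgad in C11 (26.2) and Itgb5 in C15 (48.7). In WT and Batf3-/- cells Itga2 was 26.5 and 25.2 CPM, Itgb5 44.5 and 59.6, and Itgad, an alpha chain of beta 2, 37.4 and 18.4. Red pulp macrophage markers summed in C11 to 1769 and 1494 CPM, with none of the 5 at 0, and their part in Itgad was not tested. Among 25 of 26 activators and linkers found, 0 of 20 passed the fold over whole libraries or at WT weights, against 5.93% and 2.02% of all genes. In C6 the adaptor Fyb (86.7 and 145 CPM) and the Rap1 exchange factor Rasgrp2 (13.7 and 22.7) were higher and the linker Lims1 (124 and 54.8) lower in Batf3-/- cells, 3 of 19, against 9.69% of all genes. Fyb, Rap1a and Tln1, the gene of talin, had the highest UMI counts of the list, at 476, 371 and 294 CPM over both libraries. Of 16 ligands and partners, 0 of 4 that met the floor passed over whole libraries, and 0 of 4 at WT weights. In C6 the matrix protein gene Spp1 was lower, at 25.9 and 4.6 CPM, 1 of 5, against the same 9.69%. Cd47, Tgfb1 and Icam1 led that list, at 539, 210 and 154 CPM.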

How the data were processed

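The authors deposited raw counts, as UMIs per gene and cell, made with Cell Ranger on GRCm38 and filtered in Seurat 3.0.5, with cluster, phase and cell type labels. The deposited mitochondrial and ribosomal fractions were each within 1e-09 of the value recomputed from the counts in 24343 of 24343 cells. The normalized tables were not used here, and neither were the antibody tables, whose rows carry no names. Counts were summed by cluster and library over all UMIs, per 1000000 (CPM), with Python 3.11.15, numpy 2.4.6, scipy 1.17.1 and pandas 2.3.3. Intervals are exact Poisson for levels, exact binomial given the summed UMIs for ratios, and Clopper-Pearson for shares, at 95%. For shares, each cell was drawn down to 1000 UMIs, and the 28 WT and 42 mutant cells with fewer were dropped. Scrublet in scanpy 1.11.5, at an expected rate of 0.1, called 541 WT and 244 Batf3-/- cells as doublets. These were kept except where stated. Intervals, thinning and the fold rule were run on simulated Poisson counts, the model that the intervals assume. That checks the code only, since the simulation held no spread between cells or mice. The 3' counts carry no length factor.

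The members, lists and markers were chosen with earlier results of these data known. The text names all 9 members, other integrin genes with at least 20 CPM in a cluster, list genes past the fold in C6 or over whole libraries, the 3 highest of each list, and the genes most alike. Alternatives were the weighting of cells, the total, doublets, the deepest cells, G1 cells, folds, floors, cluster sizes and thinning depths.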

Additional observations from a re-analysis of the deposited data

Results flagged for a closer look

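With 1 library per genotype the differences below were not tested. For each gene the clusters with the highest and the lowest ratio were taken. A gene was kept where both intervals exclude 0 and at least 1 of these ratios was past 1.5-fold. The opposite directions follow from that choice. Itgb1 also had both intervals clear of 0, at 0.52 (0.27 to 0.79) in C10 and -0.38 (-0.49 to -0.26) in C6. It was left out since neither ratio was past 1.5-fold. The log2 ratio of Itgam, Batf3-/- over WT, was 3.19 in C6 and -0.48 (-0.94 to -0.02) in C11, opposite directions with a difference of 3.67. For Itgb7 it was 0.62 in C6 and -0.47 (-0.69 to -0.24) in C1, a difference of 1.09. Itgam in C11, from 82 and 84 UMIs, and Itgb7 in C1 were both within 1.5-fold.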

How the results depend on the processing

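No paired analysis was possible because each genotype is 1 library. Of 8 pairs of an integrin gene and a cluster past 1.5-fold, the count was 38 at a lower limit (log2 ratio of 0.32), 1 at 2-fold (Itgam in C6), 4 at a floor of 50 CPM, 4 in G1 cells, where C6 has too few WT cells, and 14 with clusters of at least 20 cells in each library. Over whole libraries 2 genes (Itgam and Itgal) passed that lower limit, and 1 (Itgax) at WT weights. The share of all genes was computed only at 1.5-fold over all cells. These counts at other settings thus have no such share beside them, and whether they exceed it is not known. The count of 0 at 1.5-fold was the same under the other settings tried. The highest cluster by share of cells was the same for 4 of 9 genes at 5000 UMIs and for 4 without thinning. Of 27 alike genes, 8 were also chosen by Spearman rho and 14 with the WT library alone. Without doublets the log2 ratio of Itgam in C6 was 4.20. Between clusters, an alternative without doublets, chosen after seeing the data, ended 2 calls, Itgav for C1 over C0 and Itgb2 for C3 over C0. Counting error limits Itgae most: 51 UMIs in the whole Batf3-/- library.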
